A study of Mus musculus with 18 samples.

Results

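The livers of 12 male CD-1 mice that ate bisphenol A, 6 at a low and 6 at a high dose, were taken as 1 group and set against the livers of the 6 control mice. Members were the arrays whose titles name the low or the high dose, and together with the controls they are all 18 arrays of the series. The mice were 9 weeks old and had eaten a powdered diet for 28 days, formulated for a daily intake of 0, 50 or 5000 µg of bisphenol A per kg of body weight. CD-1 is an outbred stock, and each array measured total RNA of 1 mouse, from a piece of the large liver lobe, labelled with the dye Cy3. The question was which genes moved the same way at both doses, which lie 100-fold apart. Levels below are log2 intensities on a scale where 0 is each array's own 75th percentile, and differences are dosed minus control on the log2 scale. Levels of different genes come from different probes and are not compared with each other.

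Bisphenol A is a plastics monomer that binds the estrogen receptors weakly and estrogen-related receptor gamma tightly, and the liver clears it mainly by conjugation. Liver makes fatty acids from sugar under the transcription factors SREBP-1c and ChREBP, and burns them in fasting under the nuclear receptor PPAR-alpha. Many genes of both programmes also follow the feeding state and the circadian clock. Fragments of whole liver hold several cell types, and a change in the number of cells of a type cannot be told apart from a change in RNA per cell.

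The arrays correlated with each other at 0.950 to 0.985 over the genes tested. All 16 hepatocyte markers with a probe, of 18 listed, were above background on every array. Dosed arrays were brighter. On the log2 scale this percentile stood at 7.83 ± 0.26 across the controls (SD, n = 6; range 7.48 to 8.25) and 8.19 ± 0.19 in dosed mice (SD, n = 12; range 7.83 to 8.47), a difference of 0.36 (exact permutation test over arrays, 2-sided p = 0.00382). Saturated spots numbered 93 ± 28.9 per control array and 129 ± 21.5 per dosed array (exact permutation p = 0.00792). Of the probes above background, 61 were saturated on at least 1 dosed array and no control, and 3 the other way round. The 169 probes saturated on any array were left out, which removed 107 genes and left 17554. Position on the slide also went with group, since all controls lay at positions 1 and 4 and 9 of the 12 dosed arrays at positions 2 and 3. Slide was not given by the labels: arrays with the same scan date in the file headers were taken to share a slide. Slide 1 of the 5 slides inferred in this way held 1 array of each dose and no control.

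**Figure D1:**
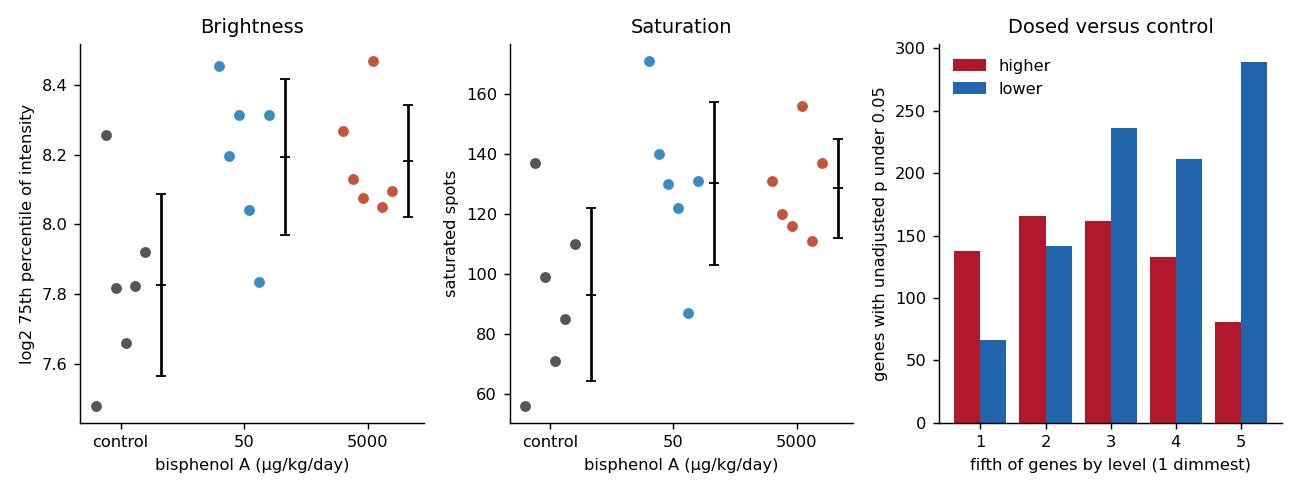
Left and middle, the log2 75th percentile of intensity (arbitrary units) and the number of saturated spots on each array (points), with the mean and SD (bar) of 6 arrays per group. Both were higher in the dosed groups, with overlap. Right, the number of genes with an unadjusted p under 0.05 in the pooled comparison, by quintile of level from the dimmest to the brightest: 138 higher and 66 lower in the dimmest, 81 higher and 289 lower in the brightest.

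Of the 17554 genes tested, 1 passed an adjusted p of 0.05 in the pooled comparison with the same sign at both doses (limma, Benjamini-Hochberg). It was lower in dosed mice, which is 0.0057% of the genes. No gene was called higher (0%). At an unadjusted p under 0.05, 680 genes were higher (3.87%) and 944 lower (5.38%), together 9.25%, where 878 genes would pass by chance alone. The same sign at both doses follows nearly by itself from a pooled difference of that size and is no measure of agreement between doses. With each dose tested on its own against the shared controls, 161 genes had an unadjusted p under 0.05 and were higher at both doses (0.917%) and 239 were lower at both (1.36%). The shared controls pull both differences the same way, so these counts do not measure agreement either. The low dose alone had 41 calls after adjustment (0.234%, against 11.3% at an unadjusted p under 0.05), the high dose none (0%; 1166 genes, or 6.64%, at an unadjusted p under 0.05), and the direct test of high against low dose 5 (0.0285%, against 7.73% at an unadjusted p under 0.05). Those 5 genes, named here because they are so few, were Reck, Atp2b2, Chrna4 and Crem, lower at the high dose, and Serpinb1a, higher at the high dose. With slide, or with the mouse number, as a block the 41 low-dose calls became 2 and the 5 calls between the doses became 0.

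The split into higher and lower genes went with the level of the gene, as the plot of brightness shows. The median difference was 0.03 in the dimmest quintile and -0.05 in the brightest. The part of array brightness in this pattern, and in the gene differences below, was not tested apart from a fit with brightness as a covariate, which had no call and 788 genes at an unadjusted p under 0.05. That count is below the 878 genes expected by chance. Brightness went with group, so the fit cannot tell them apart.

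The called transcript was AK143589, a cDNA without a regular gene symbol whose file description names the product zinc finger FYVE domain containing 27. Its probe lies at chr19:42225752-42225811 of mouse build mm8. Its level was -4.63, -4.49 and -3.85 in controls (lowest, median and highest), -5.39, -5.14 and -4.92 at the low dose, and -5.62, -5.29 and -4.94 at the high dose. Every dosed array lay below every control. It fell by 0.84 ± 0.12 (SE; adjusted p = 0.0277, limma), with -0.79 for the low dose and -0.89 for the high. The adjusted p was 0.196 with slide as a fixed block, 0.114 with the replicate block and 0.569 with position on the slide, so the call did not hold in those fits. The signal was close to background: the probe was well above background on 5 of 6 control arrays, on 1 of 6 low-dose arrays and on none of the high-dose arrays. It was tested because of its control arrays and 1 low-dose array, and the dosed values are mostly at background. The adjusted p and the differences above therefore carry little weight. Measured against the dimmest intensity that counts as above background, control livers were at least 1.59-fold brighter than high-dose livers. A separate probe for Zfyve27, the gene of that product name, differed by -0.04. The call was lost in 12 of the 18 fits that each left out 1 array, with adjusted p from 0.0249 to 0.165.

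Among genes with a regular symbol the smallest adjusted p was 0.122, shared by Brap, E2f8 and Mreg, all lower in dosed mice and none past the threshold. Brap encodes an E3 ubiquitin ligase that restrains RAS to MAP kinase signalling, E2f8 an atypical E2F repressor involved in hepatocyte polyploidy, and Mreg melanoregulin, which takes part in organelle transport. A total of 4 genes (0.0228%) had all 12 dosed arrays below all controls, namely AK143589, AK162987, Brap and Mreg. In the other direction 1 gene (0.0057%), Pcyt1a, had all 12 above. Of the 18564 ways to divide the arrays into groups of these sizes, 1 gives full separation of a gene in a given direction. With 17554 genes tested, the 1 higher gene is about the count that chance alone would give. Whether the 4 lower genes exceed chance was not tested. Pcyt1a encodes the rate-limiting enzyme of phosphatidylcholine synthesis by the CDP-choline route.

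The promoters of the 3 separated genes with a symbol and of E2f8 are shown because these are the named genes with full separation or the smallest adjusted p. They are the 250 bases before a transcript start in RefSeq (GRCm38.p6), 5′ to 3′ along the gene. Capitals mark a match to TCACNCCAC, the sterol response element of SREBP; the other windows hold no match to a motif searched.
Pcyt1a, chr16:32430671-32430920, plus strand: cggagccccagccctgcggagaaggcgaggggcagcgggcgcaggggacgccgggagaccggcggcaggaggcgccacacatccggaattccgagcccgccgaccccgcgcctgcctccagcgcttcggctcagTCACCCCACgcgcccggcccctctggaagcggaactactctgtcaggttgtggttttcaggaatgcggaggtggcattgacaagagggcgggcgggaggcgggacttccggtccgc
Brap, chr5:121660313-121660562, plus strand: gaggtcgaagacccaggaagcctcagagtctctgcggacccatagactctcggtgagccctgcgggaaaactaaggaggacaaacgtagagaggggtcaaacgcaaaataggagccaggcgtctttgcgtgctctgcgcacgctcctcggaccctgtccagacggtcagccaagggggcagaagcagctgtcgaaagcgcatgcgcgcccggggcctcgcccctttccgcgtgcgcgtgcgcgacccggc
Mreg, chr1:72212308-72212557, minus strand: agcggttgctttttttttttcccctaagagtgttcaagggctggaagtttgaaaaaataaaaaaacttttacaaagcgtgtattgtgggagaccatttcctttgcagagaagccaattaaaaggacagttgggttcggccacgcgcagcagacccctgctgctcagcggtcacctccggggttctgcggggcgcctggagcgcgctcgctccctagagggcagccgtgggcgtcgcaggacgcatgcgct
E2f8, chr7:48881597-48881846, minus strand: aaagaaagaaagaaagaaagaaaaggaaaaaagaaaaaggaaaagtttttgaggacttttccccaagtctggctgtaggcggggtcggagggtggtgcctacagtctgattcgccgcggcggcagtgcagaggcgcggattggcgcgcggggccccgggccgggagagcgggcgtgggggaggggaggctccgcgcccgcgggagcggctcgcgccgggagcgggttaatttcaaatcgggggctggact

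The search covered 250 bases before and 50 after each start, on both strands, and a promoter was found for 10634 of the genes tested. The sterol response element TCACNCCAC was in 1.42% of them, in 1.80% of the 388 higher genes with a window (unadjusted p under 0.05) and in 1.54% of the 583 lower genes. The E-box CACGTG, bound by clock factors and SREBP-1c, was in 11.1%, 10.1% and 9.78%. The cyclic AMP response element TGACGTCA was in 3.18%, 2.84% and 3.60%, and the D-box TTANGTAA in 2.13%, 2.06% and 2.40%. The full palindromic estrogen response element was in 0.0188% of all tested genes with a window and in none of either set. The shares of the sets lay near those of all genes.

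Brap had levels of 1.19, 1.32 and 1.59 in controls (lowest, median and highest), 0.35, 0.81 and 0.92 in low-dose mice and 0.69, 0.91 and 1.08 in high-dose mice. No dosed array reached the lowest control. The difference was -0.54 ± 0.0972 (SE), -0.60 at the low and -0.49 at the high dose, and a second Brap probe gave -0.50. Within the 4 slides that hold controls, the Brap differences were -0.72 to -0.20. Their sign follows from the full separation and is no separate result.

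Mreg ran from -1.20 to -0.93 in controls with a median of -1.07, from -2.14 to -1.42 (median -1.85) at the low dose, and from -1.80 to -1.32 (median -1.53) at the high dose. All dosed arrays lay below all controls, and the high dose lay between the other groups. The difference was -0.61 ± 0.111 (SE), -0.76 at the low and -0.47 at the high dose. High minus low was 0.29 (95% interval 0.06 to 0.53, adjusted p = 0.501). Within slides the Mreg differences were -0.80 to -0.52, and their sign again follows from the full separation.

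E2f8 had levels of 2.52, 3.11 and 3.35 in controls, 1.5, 1.97 and 2.74 in low-dose mice and 2.13 as the median in high-dose mice (1.85 to 2.57). Of the 12 dosed arrays, 10 lay below the lowest control. The difference was -0.93 ± 0.167 (SE), a fold of 1.91, with a second probe at -0.64. It was -0.99 at the low and -0.87 at the high dose, and within slides -1.42 to -0.63. Over the fits that each left out 1 array the adjusted p ran from 0.0399, without low-dose mouse 4, to 0.577.

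**Figure D2:**
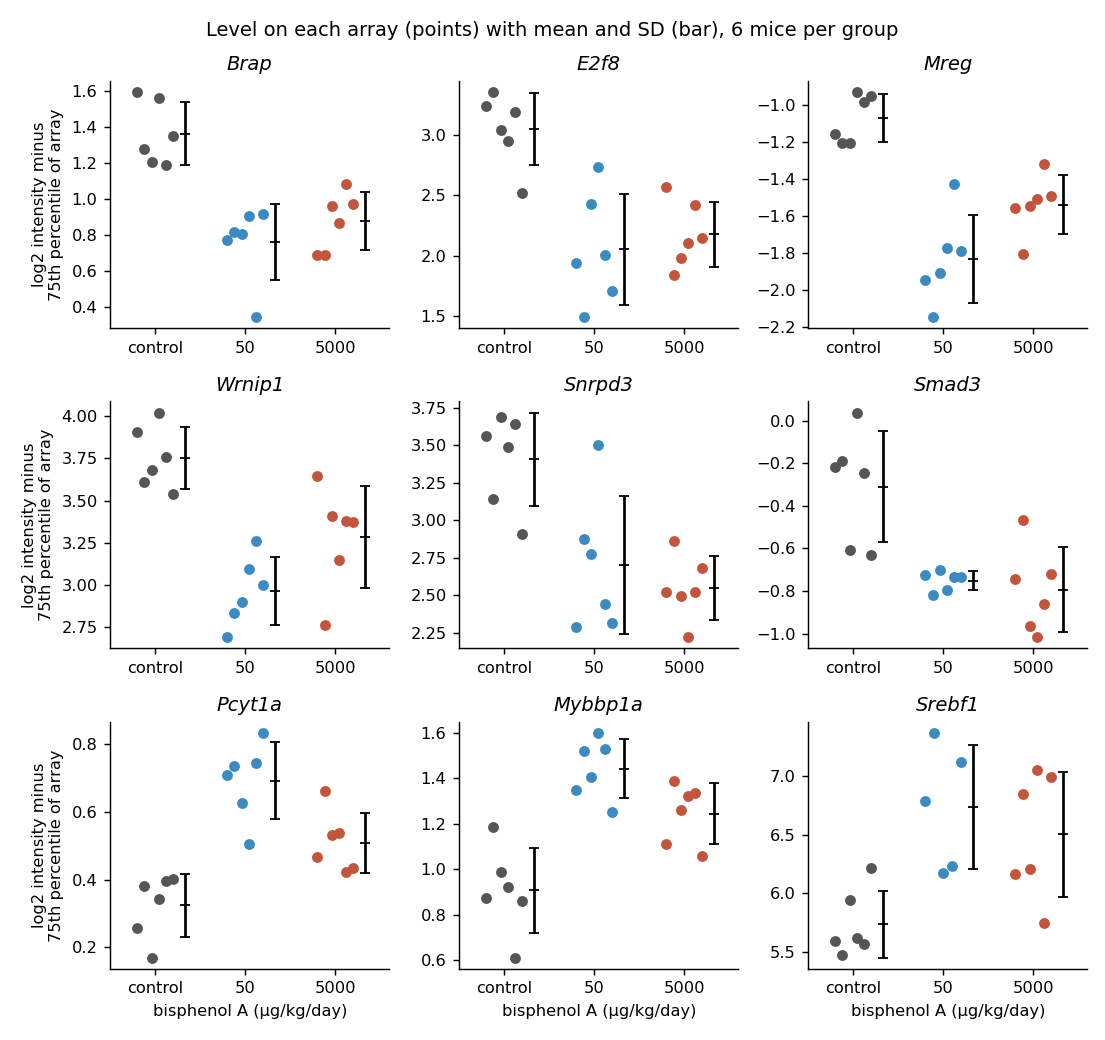
Level on each array (log2, 0 at the array's 75th percentile; points) for 9 genes by dose, with mean and SD (bar), 6 arrays per group and 5 at the low dose for Srebf1, which has a missing value. For Brap and Mreg all dosed arrays lie below all controls and for Pcyt1a all lie above; the other genes overlap.

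Other lower genes of smallest p, none past the threshold, were Wrnip1 (-0.63), Snrpd3 (-0.78), Tspan33 (-0.55), Smad3 (-0.46), Strn (-0.37) and Rnf214 (-0.35), with adjusted p from 0.24 to 0.28. Wrnip1, an ATPase that acts at stalled replication forks, had levels of 3.54 to 4.02 in controls (median 3.72), 2.69 to 3.26 in low-dose mice (median 2.95) and 2.76 to 3.65 in high-dose mice (median 3.37). Of its dosed arrays, 11 lay below all controls, and its other probe also gave -0.63. Snrpd3, a core Sm protein of the spliceosomal snRNPs, had levels of 2.91 to 3.69 in controls (median 3.53), 2.29 to 3.50 in low-dose mice (median 2.61) and 2.22 to 2.86 in high-dose mice (median 2.52). Low-dose mouse 4 lay within the control range and the other dosed mice below it. Its other probes gave -0.74 and -0.17, so the probes disagreed. Over the fits that each left out 1 array the adjusted p ran from 0.0384, without low-dose mouse 4, to 0.666.

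Smad3, a transducer of TGF-beta signals, ran from -0.63 to 0.04 in controls (median -0.23), from -0.82 to -0.70 in low-dose mice (median -0.74) and from -1.02 to -0.47 in high-dose mice (median -0.80). The low-dose values were tightly grouped, and 11 dosed arrays lay below all controls. Its other probes gave -0.26 and -0.02, so the probes disagreed. Probes of Tspan33, a tetraspanin, gave -0.55 and -0.71, while those of Strn, a scaffold of a protein phosphatase 2A complex, gave -0.37, -0.19 and 0.04. The RING finger gene Rnf214 had -0.35, -0.29, -0.24 and 0.08.

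The higher genes of smallest p were also not past the threshold, with adjusted p from 0.24 to 0.305. Those well above background on every array were Mybbp1a (0.44), Fgfr1op2 (0.40), Lemd3 (0.43), Arcn1 (0.44), Ext1 (0.35), Ppip5k1 (0.35), Chic1 (0.98) and Mfsd4 (0.86). Second probes gave 0.27 for Fgfr1op2 and 0.38 for Chic1. Mybbp1a, a Myb-binding protein of the nucleolus, had levels of 0.61, 0.90 and 1.18 in controls, 1.25, 1.46 and 1.60 in low-dose mice and 1.06, 1.29 and 1.39 in high-dose mice. Its 6 low-dose arrays lay above all controls and 4 of the high-dose arrays did. The difference was 0.44 ± 0.0911 (SE; adjusted p = 0.24), and 0.24 to 0.60 within slides.

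Ext1, which polymerises heparan sulfate, ran from 0.65 to 1.11 in controls (median 0.97), from 1.17 to 1.49 in low-dose mice (median 1.34) and from 1.05 to 1.41 in high-dose mice (median 1.26). Of the dosed arrays 11 lay above all controls. Arcn1, the delta subunit of the coatomer coat, had 5 probes that gave 0.44, 0.33, 0.30, -0.0046 and -0.16, and the brightest is the one used. Lemd3, an inner nuclear membrane protein that binds SMADs, had probes at 0.43, 0.23 and 0.05. For both genes the probes disagreed.

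Pcyt1a had levels of 0.17, 0.36 and 0.40 in controls, 0.51, 0.72 and 0.83 in low-dose mice and 0.42, 0.50 and 0.66 in high-dose mice. Its gap between the nearest dosed and control arrays was narrow. The difference was 0.28 ± 0.0733 (SE; adjusted p = 0.32), and 0.17 to 0.33 within slides. The sign within slides follows from the full separation. High minus low was -0.18 (95% interval -0.34 to -0.03, adjusted p = 0.565), and a second Pcyt1a probe gave 0.13.

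The rule also picked the zinc finger genes Zfp324 (1.35) and Hivep3, which were dim in controls. The Hivep3 probe was well above background on none of the 6 control arrays and on 11 of 12 dosed arrays. By the background limit of the scanner intensities, dosed arrays were at least 1.34-fold brighter. The probe was tested because of its dosed arrays alone, so a higher dosed level was built into its selection. Only this bound is given, it holds for this background method alone, and the rank by p carries no weight. Zfp324 was well above background on 4 of 6 controls, its other probe gave 0.19, and on 1 of 4 slides it was lower in dosed mice (-0.44). With the normexp background method Zfp324 and Mfsd4 turned to -0.03 and -0.08, and Hivep3 was at -0.25.

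**Figure D3:**
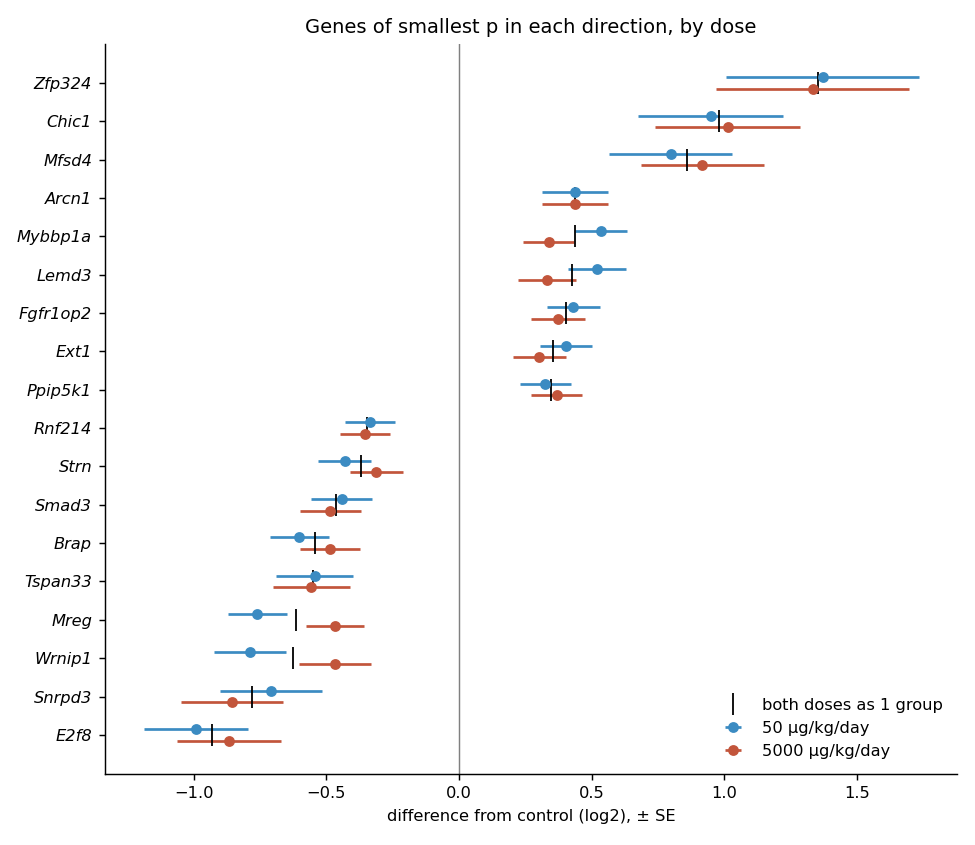
Difference from control (log2, ± SE) at 50 (blue) and 5000 (red) µg per kg per day for 18 of the 20 genes of smallest pooled p (9 higher and 9 lower), with the pooled difference as a black line. The doses share their controls. Mreg stood at -0.76 and -0.47 and Wrnip1 at -0.79 and -0.47, low and high dose; none of the 18 genes passed the threshold in the pooled comparison.

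**Figure D4:**
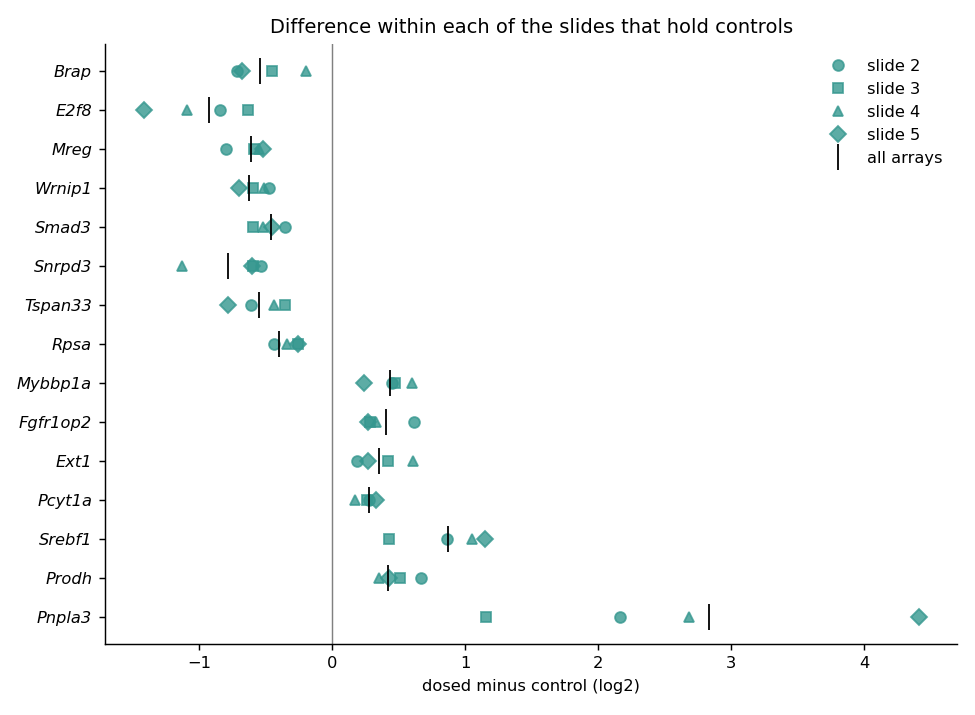
Dosed minus control (log2) within each of the 4 slides that hold controls (symbols), with the difference over all arrays as a black line, for 15 genes. Brap, E2f8, Mreg and Rpsa were lower on 4 of 4 slides, and Pcyt1a, Mybbp1a, Srebf1 and Pnpla3 higher on 4 of 4. For Brap, Mreg and Pcyt1a the sign follows from their full separation. The genes shown were chosen with results of these same arrays known, so the slides are no separate support.

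Gene lists were read against the median of all genes (-0.01) and the 9.25% of genes at an unadjusted p under 0.05. The lists were chosen with earlier results of these data known, so their shares are descriptions and no test of a list. Fatty acid synthesis genes were mostly higher in the pooled comparison: 17 of 22 tested were higher and 9 had an unadjusted p under 0.05, all higher (40.9%), with a median difference of 0.42. Of all 17554 genes, 8315 were higher. Only 12 of the 22 had the same sign at both doses, against 12221 of all 17554 genes. The list medians were 0.76 at the low and 0.01 at the high dose. None passed adjustment in the pooled comparison. Srebf1, the gene of SREBP-1c, had levels of 5.47, 5.61 and 6.22 in controls, 6.17, 6.79 and 7.37 in the 5 low-dose mice with a value, and 5.74, 6.53 and 7.05 at the high dose. It differed by 0.87 ± 0.22 (SE, adjusted p = 0.316, limma), 1.00 at the low and 0.77 at the high dose. Srebf1 was higher on 4 of 4 slides. At the high dose mice 2, 4 and 6 stood at 6.85, 7.05 and 6.99. Mice 1, 3 and 5 stood at 6.17, 6.21 and 5.74, none above the highest control.

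Pnpla3, a lipid droplet hydrolase and SREBP-1c target, ran from 0.01 to 1.72 in controls (median 0.45), from 3.44 to 5.96 in low-dose mice (median 4.23) and from 0.00 to 4.45 in high-dose mice (median 2.29). Every mouse of the low dose exceeded the controls, while at the high dose mice 2, 4 and 6 stood at 3.86, 4.14 and 4.45 and mice 1, 3 and 5 at 0.72, 0.16 and 0.00, none above the highest control. The pooled difference was 2.83 ± 0.781 (SE; adjusted p = 0.32), 3.97 at the low and 1.69 at the high dose. Fasn, fatty acid synthase, differed by 1.51 (2.34 and 0.68), Elovl6, a fatty acid elongase, by 1.25 (2.10 and 0.40), Acly, which makes cytosolic acetyl-CoA, by 1.02 (1.89 and 0.16), and Scd2, a desaturase, by 0.51 (0.58 and 0.45). The high-dose mice did not divide the same way for every gene. Mouse 2 lay within the control range for Acly (2.80) and Elovl6 (4.01). Mice 4 and 6 lay above it, at 4.06 and 4.09 for Acly and 5.05 and 4.75 for Elovl6. High minus low was -1.66 for Fasn (95% interval -2.41 to -0.90, adjusted p = 0.159) and -1.73 for Acly (-2.50 to -0.97, adjusted p = 0.154). Thrsp, a regulator of lipogenesis, was saturated on at least 1 array and left out; with saturated spots kept its difference was 2.06 (adjusted p = 0.263).

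Of 25 genes of cholesterol synthesis and uptake, 20 were higher, but only Mvd, mevalonate decarboxylase, had an unadjusted p under 0.05 (4%), at 1.02 (1.70 and 0.34 at the low and high dose). The list medians were 0.23 pooled, 0.46 at the low and 0.04 at the high dose. In triglyceride synthesis and lipid droplets 2 of 24 genes were higher and 3 lower at that level (20.8%). Gpam, which starts glycerolipid synthesis in mitochondria, differed by 1.32 (2.04 and 0.60), Lpin3 by 0.34, Plin5, a droplet coat protein, by -0.45 and Agpat3 by -0.18 (second probe -0.04). Prodh, proline dehydrogenase, was at 0.42 ± 0.114 (SE; adjusted p = 0.32).

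Genes of fatty acid oxidation and PPAR-alpha targets were mostly lower. Of 27 tested, 25 were lower and 9 had an unadjusted p under 0.05, all lower (33.3%), and 0 passed adjustment. The list medians were -0.27 pooled, -0.37 at the low and -0.23 at the high dose.

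Acot1, a cytosolic acyl-CoA thioesterase, differed by -1.33 (-1.53 and -1.12 at the low and high dose), Creb3l3, a liver transcription factor of fasting, by -0.42 (-0.48 and -0.35), with a value missing on 2 arrays. Slc25a20, the carnitine carrier, was at -0.43 and Cpt1a, which starts mitochondrial oxidation, at -0.44. Cpt2, Acot2, Acadvl and Cyp4a10 also had an unadjusted p under 0.05, at -0.26, -0.74, -0.19 and -0.43. Cyp4a14 had the largest difference of the list, -2.23, with a wide error (SE 1.19, adjusted p = 0.586).

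**Figure D5:**
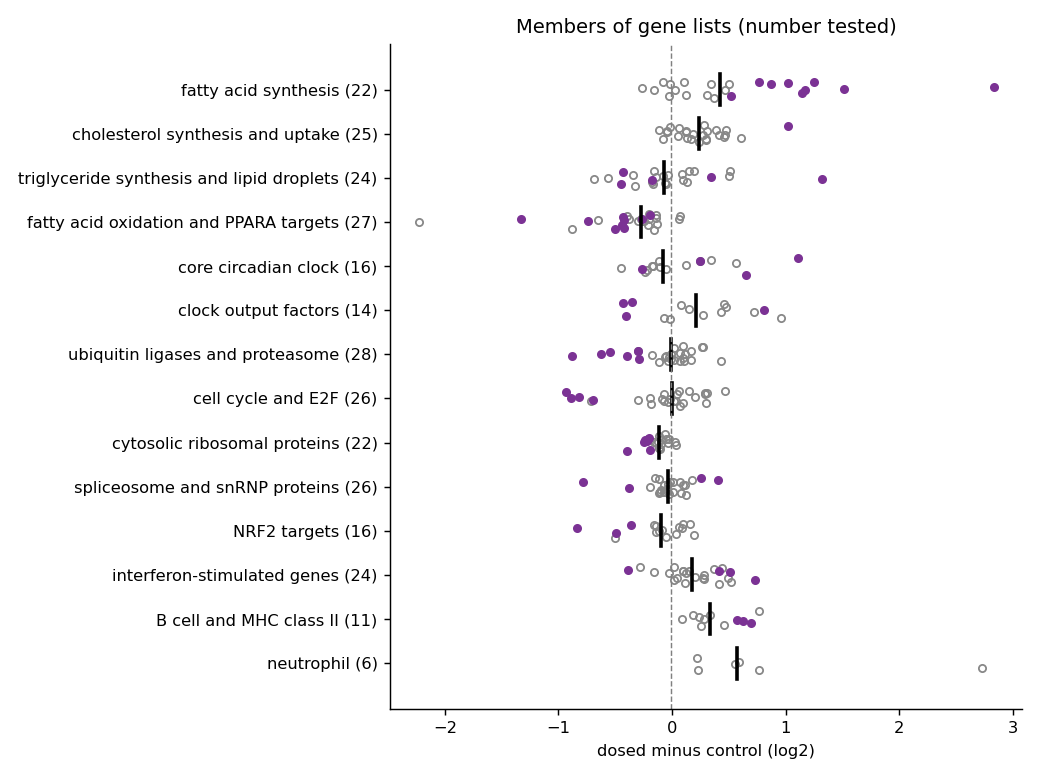
Dosed minus control (log2) for the tested members of 14 gene lists (number tested in brackets); filled points have an unadjusted p under 0.05, thick lines are list medians and the dashed line is the median of all genes, -0.01. Fatty acid synthesis (median 0.42) lies mostly to the right and fatty acid oxidation (-0.27) to the left.

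Cytosolic ribosomal protein genes showed small differences. Of 22 tested, 20 were lower, 7 of them with an unadjusted p under 0.05 (31.8%), and the medians were -0.12 pooled, -0.08 at the low and -0.15 at the high dose. Rpsa, a protein of the small subunit, had levels of 4.95, 5.10 and 5.28 in controls, 4.57, 4.68 and 5.07 in low-dose mice and 4.38, 4.71 and 4.84 in high-dose mice. It differed by -0.40 ± 0.0945 (SE; adjusted p = 0.282), with 1 array missing. A second Rpsa probe gave -0.80 with a wide error (SE 0.59). Rps6, Rpl32 and Rpl8 differed by -0.20, -0.21 and -0.22. These are among the brightest probes, and the brightest quintile of all genes had 81 higher and 289 lower genes at that p; the part of brightness was not tested.

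In the list of ubiquitin ligases and proteasome subunits 6 of 28 genes were lower and 0 higher at an unadjusted p under 0.05 (21.4%), although its median was -0.01. Its members were picked with earlier results of these data known, so this share is no independent result. Brap and the ATPase Wrnip1, which the list also holds, were among the 6 lower genes. So were Trim25, a ligase of antiviral signalling, at -0.39 and Fbxo21, an F-box protein, at -0.88 (other probes -1.08 and -0.38). Fbxo21 had levels of 4.71 to 5.24 in controls, 2.58 to 4.23 in low-dose mice and 3.85 to 5.29 in high-dose mice. Its doses were at -1.41 and -0.35, and at the high dose mice 2, 4 and 6 stood at 3.85, 4.07 and 4.23. Mice 1, 3 and 5 stood at 5.07, 4.95 and 5.29, none below the lowest control. In the cell cycle list 13 of 26 genes were higher and 13 lower, and 4 had an unadjusted p under 0.05, all lower (15.4%): E2f8, the kinetochore gene Spc25 (-0.82), the CDK inhibitor Cdkn2c (-0.89) and Cdk1 (-0.70). The spliceosome list had 2 higher and 2 lower of 26 at that p (15.4%), Srsf3 at 0.41 and Snrpd1 at 0.25 against Snrpd3 at -0.78 and Lsm2 at -0.38.

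Of 16 NRF2 targets 3 were lower at an unadjusted p under 0.05 (18.8%): Ephx1, microsomal epoxide hydrolase, at -0.84 ± 0.218 (SE), Gstm1, a glutathione transferase, at -0.50 and Gclc, the first enzyme of glutathione synthesis, at -0.36. Each was lower at both doses (Ephx1 -0.78 and -0.90, Gstm1 -0.47 and -0.52, Gclc -0.29 and -0.43). The high minus low interval for Ephx1 was -0.66 to 0.43, which leaves room for a difference between doses.

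Clock genes differed in both directions. Of 16 core clock genes 3 were higher and 1 lower at an unadjusted p under 0.05 (25%), with a median of -0.08. Per2, a repressor of the clock, differed by 1.10 (1.62 and 0.59), and its second probe by 0.27. At the high dose Per2 was at 0.02, -0.47 and -0.86 in mice 2, 4 and 6. In mice 1, 3 and 5 it was at -2.25, -1.83 and -2.39, within the control range of -2.58 to -1.48. Per3 was at 0.65, Csnk1e, a kinase of PER proteins, at 0.24 and Clock at -0.26, while the repressor Cry1 was at -0.45 (adjusted p = 0.609; second probe -0.03). Dbp, a clock output factor, had levels of 0.11 to 2.03 in controls (median 0.60), -0.26 to 2.73 in low-dose mice (median 0.32) and 2.06 to 2.82 in high-dose mice (median 2.66). All high-dose mice lay above all controls and the low dose spanned the control range, so its pooled 0.96 (adjusted p = 0.585) joins 0.11 and 1.81.

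None of the 14 genes of the steroid and estrogen-related receptor list had an unadjusted p under 0.05. Esr1, estrogen receptor alpha, differed by 0.22 ± 0.257 (SE; adjusted p = 0.833) and Esrrg by -0.0049 ± 0.156 (SE; adjusted p = 0.994). None of the 18 tested genes of growth hormone and sex-biased expression did either. Among 21 drug metabolism genes 11 were higher and 10 lower, and 2 had an unadjusted p under 0.05 (9.52%, near the 9.25% of all genes), both lower: Nr1i3, the receptor CAR, at -0.51 (adjusted p = 0.531) and Cyp1a2 at -0.52 (adjusted p = 0.462). Cyp3a11, a target of the receptor PXR, was at -0.49 (adjusted p = 0.608). Cyp2b10, a CAR target well above background on 2 of 6 controls, was at 0.82 (adjusted p = 0.626). Cyp7a1, the rate-limiting enzyme of bile acid synthesis, was at -0.93 (adjusted p = 0.742), joining -1.94 in low-dose mice and 0.07 in high-dose mice.

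All 11 tested markers of B cells and MHC class II were higher, 3 with an unadjusted p under 0.05 (27.3%): Ciita, the activator of MHC class II genes, at 0.63, Ms4a1 at 0.70 (second probe 0.29) and H2-Ab1 at 0.57. Their medians were 0.33 pooled, 0.16 at the low and 0.69 at the high dose. Their summed level, in multiples of that percentile, was 3.89 to 8.69 in controls and 5.32 to 17.96 in dosed mice. Of 24 interferon-stimulated genes 20 were higher, 3 with an unadjusted p under 0.05, and 1 was lower at that p (16.7%), with Oasl1 at 0.73, Ddx58, the RNA sensor RIG-I, at 0.42 (other probes at 0.25, 0.14 and 0.05), Cxcl10 at 0.51 and the GTPase Iigp1 at -0.39. Only 16 of the 24 had the same sign at both doses, against 12221 of all 17554 genes. The list medians were 0.17 pooled, 0.07 at the low and 0.32 at the high dose. Whether cell content took part in these differences was not tested.

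Neutrophil markers were higher in 6 of 6 tested, with none at an unadjusted p under 0.05. Their summed level was 1.33 to 3.46 in controls and 1.13 to 139.6 in dosed mice. The sum includes Lcn2 and is weighted to its brightest members, and only 3 of the 6 were above background on all arrays. Lcn2, an iron-binding acute phase protein also made by neutrophils, had levels of -5.25, -2.85 and -1.57 in controls, -5.16, 0.24 and 3.68 in low-dose mice and -3.43, -0.95 and 6.40 in high-dose mice. The spread within each dosed group was wide, and the difference of 2.73 had an SE of 1.33 (adjusted p = 0.546). Of the markers of Kupffer cells and macrophages 12 of 14 were higher and of T and NK cells 6 of 13, none at an unadjusted p under 0.05, so these lists did not stand out from all genes at that p. Stellate cell markers were evenly split, 7 of 14 each way, with Hand2 lower at -0.70 (adjusted p = 0.295; second probe -0.36). Of 10 tested hepatocyte markers 4 were higher and 6 lower, and the other 6 with a probe were lost to saturation.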

How the data were processed

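The members and gene lists were chosen with earlier results of these data known. The deposited scanner files of the authors hold intensity (gProcessedSignal, background-subtracted, arbitrary units, not normalised between arrays) from Agilent Feature Extraction 9.5, which the submitters' processing notes name together with limma. The deposited value table of the authors holds log2 intensity; its scaling steps are not given in the sources used here, and it served as an alternative only. Gene names were updated by transcript accession through a RefSeq table (GRCm38.p6), which matched 23483 of 41174 probes. Probe coordinates are those of the files (mm8).

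Each array's log2 intensity had its 75th percentile subtracted. Control spots, outlier spots and probes saturated on any array were left out. A probe was kept when well above background on at least 6 of 18 arrays (25427, of which 25258 were never saturated), each gene took the brightest of its kept probes, and each group needed 3 values. The pooled comparison was a fit of 2 groups, and the doses a fit of 3 groups (limma 3.58.1 in R 4.3.3, lmFit and eBayes, 2-sided, Benjamini-Hochberg over all 17554 genes, threshold 0.05). The pooled fit leaves a difference between doses in the spread. The number of arrays limits the precision, with a median SE of 0.146. Alternatives covered scaling, background, filters, probes, slide, position, brightness, mouse number and each array left out.

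Genes were named by rule: the 10 of smallest p in each direction with a regular symbol, separated genes, up to 4 members of smallest p per list, and 21 genes named whatever their values. Some genes that the rule picks are not reported. Genes outside the rule are named as such or complete a list count.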

Additional observations from a re-analysis of the deposited data

Results flagged for a closer look

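In a group of 6 mice, a mouse was singled out when its gap to the nearest other mouse was so large a share of the group's range that it passed Dixon's 95% critical value, which chance alone does in about 1 in 20 groups. Of 112 groups tested, 6 passed, where about 6 would by chance. Among the named genes, Brap at the low dose had a gap of 0.75 of the range, from low-dose mouse 5 at 0.35 below the others. Tspan33 in controls had 0.732, from control 6 at 3.85. Pnpla3 in controls had 0.712, from control 3 at 1.72, and Dbp in controls 0.668, from control 6 at 2.03. Lemd3 in controls had 0.664, from control 2 at -1.58, and Nr1i3 at the high dose 0.663, from high-dose mouse 2 at 1.00.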

How the results depend on the processing

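The pooled comparison called 1 gene, and AK143589 lost its call in 11 alternatives. The count was 0 with quantile normalisation, the array median, normexp, the deposited value table, a filter of above background on all 18 arrays, no filter, eBayes with trend and robust, slide as a fixed block, position, brightness as a covariate, the replicate block, and, chosen after seeing the data, without slide 1. Without scaling it was 2699 (2697 higher, with the median of all genes at 0.35). Leaving out 1 array gave 0 to 3 calls. The 1624 genes at an unadjusted p under 0.05 became 464 with normexp, 730 with position, 788 with brightness, 2580 with every probe alone, 3953 with no filter and 7856 without scaling. The counts with normexp, position and brightness were below the 878 expected by chance. Quantile normalisation gave 839 higher and 735 lower, the array median 399 and 924, the 75th percentile over probes above background on all arrays 964 and 656, against 680 and 944. The low dose had 2 calls with slide and 2 with the replicate block in place of 41, and high against low dose 0 and 0 in place of 5.

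Of 39 named genes followed, 31 kept 1 sign in all alternatives run. Esrrg turned to 0.0259 with the percentile of detected probes, 0.36 without scaling, 0.0468 with array weights, 0.21 with position and in leave-one-out fits up to 0.0873 (from -0.0751). Rnf214 turned to 0.0154 without scaling, Esr1 to -0.0448 with position and Cyp3a11 to 0.0765 with brightness. With normexp Cyp2b10 turned to -0.25, Hivep3 to -0.25, Mfsd4 to -0.0847 and Zfp324 to -0.0323. These causes were not tested. Mouse numbers were not taken to pair the samples: of 18 same-number pairs of arrays, 8 had deviations that correlated over 0.1 (-0.31 to 0.349), although 10 of the 18 arrays correlated best with their own number, a hint from the data and not the design; the replicate block is given above. Leaving out low-dose mouse 4 added E2f8 and Snrpd3 as calls. Of the 39 genes, 17 passed the threshold without scaling. Depth in the sense of arrays limits what can be seen. Differences several times their SE also failed adjustment, such as Brap at -0.54 ± 0.0972 (SE). Bounds are given for Hivep3, dim on all controls, and for AK143589, dim on all high-dose arrays. Other dim genes, such as Zfp324 and Cyp2b10, have a difference without a bound.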
